A study of Homo sapiens with 6 samples.

Results

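METTL1, the methyltransferase that makes N7-methylguanosine in tRNA together with WDR4, is encoded in a dense stretch of genes at 12q14.1. The genes described here are its neighbours CYP27B1, METTL21B, TSFM, CDK4, AVIL, TSPAN31, AGAP2, OS9 and CTDSP2. They were chosen by name as genes flanking METTL1, with earlier results of these data known. All 9 were found among the 26902 rows of the expression table. The comparison asked how each neighbour was expressed in cells that received a guide RNA against METTL1, gene by gene with distance from it.

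All cells were U-937, a human monocyte-like line, grown from a single clone that expresses Cas9 and labelled as carrying a KMT2A-MLLT10 fusion. The sgMETTL1.3 group received a guide against METTL1 by lentivirus, and the sgNS group received a control guide. Both groups were selected with blasticidin (10 µg/ml) and hygromycin (200 µg/ml), harvested 8 to 10 days after transduction, and gave 3 poly(A)-enriched RNA libraries each. METTL1 was targeted with a single guide, without rescue, and where that guide cuts is not stated in the labels. Separate cultures are not mentioned for the replicates, so p-values reflect only library-to-library spread, which may be technical.

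The neighbours share a position and not a pathway. CYP27B1 makes the active form of vitamin D, METTL21B (also named EEF1AKMT3) methylates a lysine of translation elongation factor 1A, and TSFM is the exchange factor for the mitochondrial elongation factor. CDK4 is the cyclin D-dependent kinase of the G1 phase, OS9 is a lectin that passes misfolded glycoproteins of the endoplasmic reticulum to degradation, and CTDSP2 is a phosphatase of the RNA polymerase II tail. AVIL is an actin-binding protein of the villin family, TSPAN31 is a tetraspanin, and AGAP2 is a GTPase-activating protein for Arf GTPases. The segment is known for being amplified together with CDK4 in some gliomas and sarcomas.

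The values are TPM, the length-normalised share of a transcript in its library, multiplied by 1 factor per library, so that synthetic ERCC spike-in RNAs have the same sum in every library. The factor was 1.03, 0.832 and 0.949 in the sgMETTL1.3 libraries and 1.13, 1.23 and 1.21 in the sgNS libraries, so the tests were also run on TPM, with the factor undone. The amount of spike-in and the step at which it was added are not given, and the read depth behind the values is unknown. Per library, 12134 to 12505 genes reached a value of 1. The deviation of sgMETTL1.3 replicate 1 from the other libraries of its group followed transcript GC content across genes (Spearman 0.833), and the part of GC content in the results was not tested beyond the correction reported. Of 8 myeloid markers, 7 were listed at 1 or more, and MPO was below 1 in every library. The summed markers ranged from 1540 to 1953 in sgMETTL1.3 libraries and from 2617 to 2838 in sgNS libraries. Of 25 markers of T, B, erythroid, epithelial and fibroblast cells, 10 were at 0 in all libraries, and the highest sum of a list in a library was 10.96. The T cell list summed to 4.85 to 5.86 in sgMETTL1.3 libraries and 2.51 to 2.87 in sgNS libraries, with CD3D, CD3G and CD7 at 0, and the fibroblast list to 1.80 to 3.16 in sgMETTL1.3 libraries and 1.22 to 1.58 in sgNS libraries. The part of these markers in the results was not tested. In bulk RNA, fewer cells with a transcript and less of it per cell cannot be told apart.

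The genes lie on both strands and overlap (GRCh38, GENCODE release 29). METTL1 is on the minus strand of chromosome 12 from 57768471 to 57772793. CYP27B1, on the same strand from 57762334 to 57768986, shares 516 bases with the METTL1 gene body, of which 107 are exonic in both. METTL21B, on the plus strand from 57771492 to 57782541, starts inside METTL1, and 506 bases, 19.3% of the exonic bases of METTL1, are exonic in both on opposite strands. TSFM follows on the plus strand from 57782589 to 57808071 and overlaps AVIL, on the minus strand from 57797376 to 57818704, in 303 exonic bases. CDK4, on the minus strand from 57747727 to 57756013, shares 1369 exonic bases with TSPAN31 on the plus strand from 57738013 to 57750211. That is 43.2% of the annotated exonic bases of CDK4 and 25.4% of those of TSPAN31. AGAP2 lies on the minus strand from 57723761 to 57742157, OS9 on the plus strand from 57693955 to 57721557 and CTDSP2 on the minus strand from 57819927 to 57846739. Whether the counting used strand is not given, so reads in these overlaps could be assigned to either gene. An annotated read-through transcript also joins METTL21B and TSFM.

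**Figure D1:**
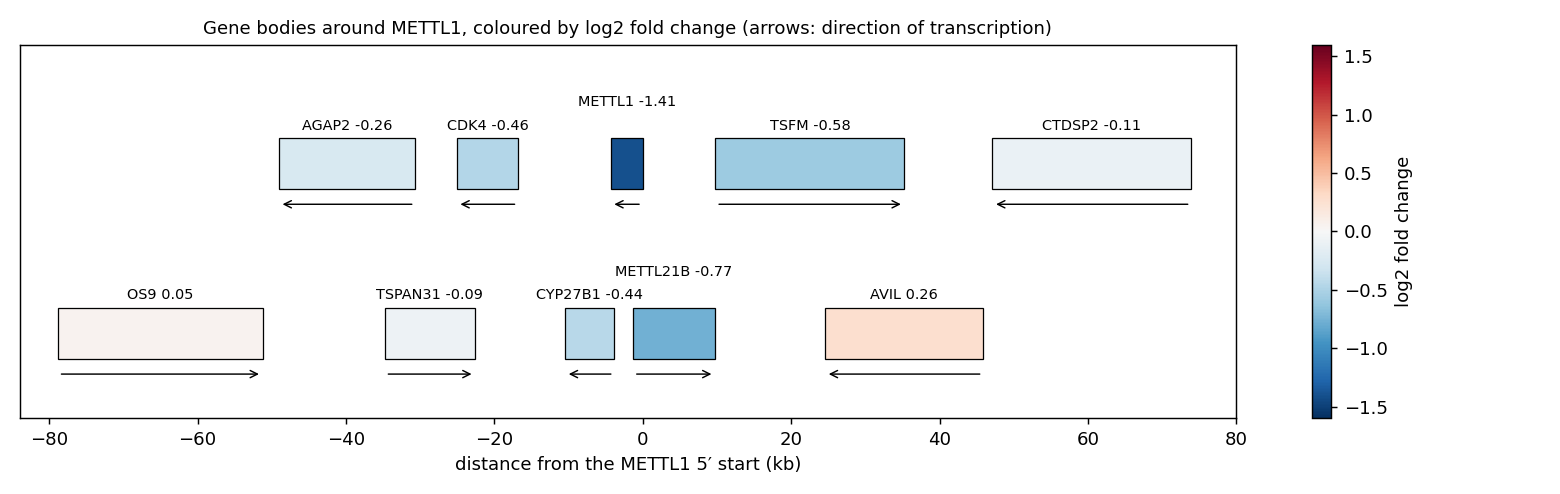
Gene bodies of METTL1 and its 9 neighbours, with the horizontal axis giving the distance from the METTL1 5′ start in kb, arrows the direction of transcription, and colour the log2 fold change of sgMETTL1.3 over sgNS on the deposited scale. METTL1 (-1.41) and METTL21B (-0.77) are the darkest. OS9 (0.05) and CTDSP2 (-0.11) at the ends are near white, as is TSPAN31 (-0.09) between them.

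Promoter sequences from RefSeq (GRCh38.p14) were at hand for OS9, AGAP2, TSPAN31, CDK4, TSFM, AVIL and CTDSP2. The windows run from 250 bases before to 50 bases after a gene's RefSeq start, which can differ from the GENCODE start used for distance. The CDK4 and TSPAN31 windows lie inside the GENCODE gene bodies given above. Those of CDK4 and OS9 are shown because the order of these genes by level differed between the groups, and that of TSFM because it is the nearest fallen neighbour with an entry. Capitals mark CACGTG, the E-box bound by MYC and its relatives, and CCAAT, the box bound by NF-Y, each searched on both strands (CCAAT reads ATTGG on the other), with no overlap between the motifs in these windows.
CDK4, minus strand, chr12:57752261-57752560: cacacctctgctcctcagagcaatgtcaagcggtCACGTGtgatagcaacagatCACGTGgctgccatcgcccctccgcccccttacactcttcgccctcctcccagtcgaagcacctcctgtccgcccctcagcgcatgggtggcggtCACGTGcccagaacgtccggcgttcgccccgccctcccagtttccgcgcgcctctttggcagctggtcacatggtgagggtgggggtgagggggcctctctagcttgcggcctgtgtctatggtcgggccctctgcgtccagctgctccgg
OS9, plus strand, chr12:57693882-57694181: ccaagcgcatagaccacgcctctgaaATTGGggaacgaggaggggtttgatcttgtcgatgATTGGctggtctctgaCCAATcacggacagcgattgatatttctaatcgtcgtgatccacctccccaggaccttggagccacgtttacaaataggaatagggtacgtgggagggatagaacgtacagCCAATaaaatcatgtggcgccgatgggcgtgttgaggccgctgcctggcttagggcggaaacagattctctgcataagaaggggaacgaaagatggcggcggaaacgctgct
TSFM, plus strand, chr12:57782537-57782836: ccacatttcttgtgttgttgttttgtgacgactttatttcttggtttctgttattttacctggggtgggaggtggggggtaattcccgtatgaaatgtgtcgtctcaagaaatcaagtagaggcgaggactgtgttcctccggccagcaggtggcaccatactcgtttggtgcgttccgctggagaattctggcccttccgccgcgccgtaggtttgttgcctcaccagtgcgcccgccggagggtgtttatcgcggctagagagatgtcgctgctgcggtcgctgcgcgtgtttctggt
The CDK4 window held 3 matches to CACGTG, at -216, -196 and -101 from the start, and no CCAAT. Of all 35116 RefSeq promoter windows, 7.26% held at least 1 CACGTG and 0.094% held 3 or more. The OS9 window held 4 CCAAT matches and no CACGTG, and 34.6% of all windows held at least 1 CCAAT and 3.26% held 3 or more. TSFM held neither, and TSPAN31, the gene that overlaps CDK4, held 4 CCAAT matches and no CACGTG. Of the windows not shown, those of AGAP2, whose order with METTL21B also differed between the groups, held neither motif. CTDSP2 held neither, and AVIL held 1 CCAAT and no CACGTG. A match describes the letters of a window and is not evidence of binding.

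METTL1 itself was lower in every sgMETTL1.3 library than in any sgNS library. Its values were 8.28, 5.94 and 7.42 in sgMETTL1.3 libraries, against 19.7, 22.0 and 20.3 in sgNS libraries. On log2(value + 1) it fell by 1.41 (SE 0.131, limma adjusted p = 2.41e-06), and by 1.09 as TPM.

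Among the neighbours, METTL21B, TSFM, CDK4 and CYP27B1 fell and none rose on the deposited scale, while TSPAN31, AGAP2, AVIL, OS9 and CTDSP2 did not pass the test. These 4 of 9 lower genes stand beside 49.3% of all 12449 tested genes called lower by the same limma fit (Benjamini-Hochberg adjusted p under 0.05), and 0 of 9 higher beside 6.4%. The neighbours' share is therefore near the background. The median log2 fold change was -0.26 for the neighbours and -0.32 for all tested genes. The neighbours' median was -0.39 without sgMETTL1.3 replicate 1, -0.13 without sgMETTL1.3 replicate 2. With GC content corrected for, it was -0.42. The median of all genes in these fits is not given here, so these values cannot be set against -0.32. As TPM, 2 of 9 were lower (26.6% of 12404 genes) and 3 of 9 higher (24.4%), with medians of 0.071 for the neighbours and 0.00 for all genes. METTL21B and TSFM fell on both scales, and AVIL, OS9 and CTDSP2 were the genes that rose as TPM. Relative to the median of all genes on the deposited scale, METTL21B was at -0.45, TSFM at -0.27, CDK4 at -0.14, CYP27B1 at -0.12, OS9 at 0.37 and AVIL at 0.58. All sgMETTL1.3 values lay below all sgNS values for 4 neighbours (53.4% of all genes) and above them for 1 (8.66%), and as TPM for 4 (33.1%) and 3 (30.2%).

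**Figure D2:**
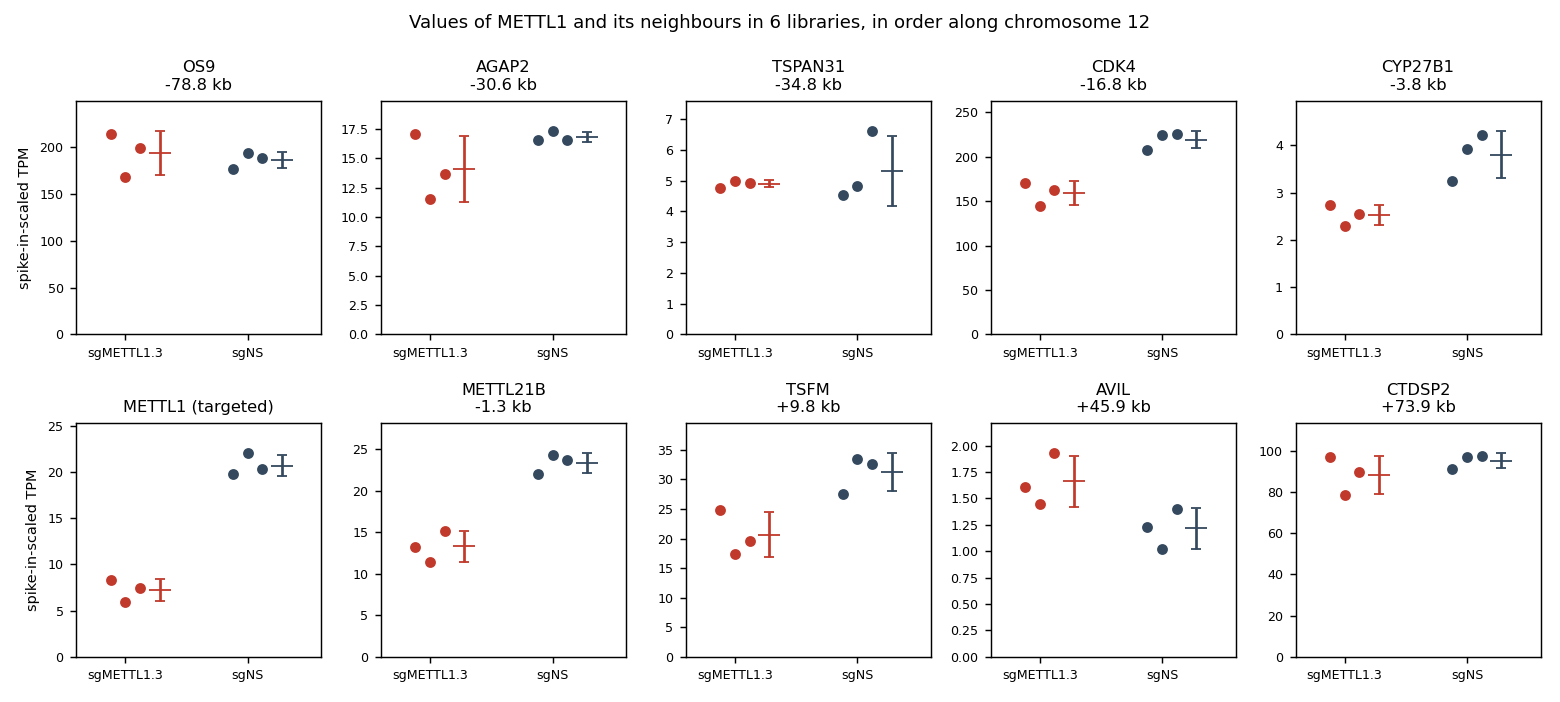
Values of METTL1 and its 9 neighbours in each library on the deposited scale (spike-in-scaled TPM, linear axes from 0), in the order of their gene bodies along chromosome 12 with the distance between 5′ starts in kb; points are replicates 1 to 3, and bars show the mean ± SD of 3 libraries. The groups do not overlap for METTL1, METTL21B, TSFM, CDK4, CYP27B1 and, in the upward direction, AVIL.

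METTL21B, whose start lies 1.3 kb from that of METTL1, had the lowest fold change among the neighbours. It had values of 13.3, 11.5 and 15.2 in sgMETTL1.3 libraries, against 22.0, 24.3 and 23.7 in sgNS libraries. All sgMETTL1.3 values lay below all sgNS values, with means of 13.3 ± 1.88 and 23.3 ± 1.18 (SD, n = 3). The log2 fold change was -0.77 (SE 0.123, limma adjusted p = 0.000154), and -0.44 as TPM (limma adjusted p = 0.00549). Of all tested genes, 15.5% had a fold change as low or lower on the deposited scale, so the size was not rare in this comparison. Since METTL1 fell further, the ratio of METTL1 to METTL21B within a library was 0.624, 0.518 and 0.488 in sgMETTL1.3 libraries, against 0.896, 0.906 and 0.857 in sgNS libraries. Such a ratio does not depend on the spike-in factor.

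CYP27B1, which starts 3.8 kb from METTL1 and overlaps its 3′ end, was expressed at a low level. Its values were 2.73, 2.30 and 2.55 in sgMETTL1.3 libraries, against 3.25, 3.93 and 4.23 in sgNS libraries. The groups did not overlap, and the log2 fold change was -0.44 (SE 0.136, limma adjusted p = 0.0136). This call rested on single control libraries: the limma adjusted p was 0.0557 without sgNS replicate 2 and 0.0879 without sgNS replicate 3. As TPM the log2 fold change was -0.18 (limma adjusted p = 0.134). Over 15 alternatives the log2 fold change ran from -0.64 to -0.17 and the limma adjusted p from 5.96e-06 to 0.150. Among these are the fits, named below for AGAP2, in which limma pooled the variance fully across genes. CYP27B1 transcripts had a mean GC content of 62.4%, the highest of the neighbours. Per unit of METTL1, CYP27B1 was higher in sgMETTL1.3 libraries, at 0.353 ± 0.0298, than in sgNS libraries, at 0.184 ± 0.0221 (SD, n = 3).

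TSFM, whose start lies 9.8 kb from METTL1 on the other side, fell. It had values of 24.9, 17.5 and 19.6 in sgMETTL1.3 libraries, against 27.6, 33.5 and 32.6 in sgNS libraries. The groups did not overlap, and the sgMETTL1.3 library nearest to the controls was replicate 1. The log2 fold change was -0.58 (SE 0.137, limma adjusted p = 0.00284), and -0.25 as TPM (limma adjusted p = 0.0471). With median-of-ratios rescaling it was -0.23 and did not pass (limma adjusted p = 0.0811). The ratio of TSFM to METTL21B overlapped between the groups, at 1.56 ± 0.296 in sgMETTL1.3 libraries and 1.34 ± 0.0714 in sgNS libraries (SD, n = 3).

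CDK4, 16.8 kb from METTL1, was the most abundant neighbour in controls and fell. Its values were 170, 144 and 163 in sgMETTL1.3 libraries, against 208, 224 and 225 in sgNS libraries. All sgMETTL1.3 values lay below all sgNS values, and CDK4 fell by 0.46 on the log2 scale (SE 0.100, limma adjusted p = 0.00150). As TPM the values were 166, 173 and 171 in sgMETTL1.3 libraries and 184, 183 and 187 in sgNS libraries, still without overlap, and the difference of -0.12 did not pass (limma adjusted p = 0.0781). As TPM without sgMETTL1.3 replicate 1 it was -0.10 and passed (limma adjusted p = 0.00311), and over 16 alternatives the adjusted p ran from 2.09e-07 to 0.0781.

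TSPAN31 and AGAP2, whose starts lie 34.8 and 30.6 kb from METTL1, did not pass the test. TSPAN31 had values of 4.777, 5.0001 and 4.926 in sgMETTL1.3 libraries, against 4.53, 4.82 and 6.62 in sgNS libraries, and the groups overlapped. Its log2 fold change was -0.09 (SE 0.143), and 0.21 as TPM. AGAP2 had values of 17.1, 11.6 and 13.7 in sgMETTL1.3 libraries, against 16.6, 17.3 and 16.6 in sgNS libraries, so that replicate 1 of the sgMETTL1.3 group lay among the controls. Its log2 fold change was -0.26 (SE 0.136, limma adjusted p = 0.127). Without sgMETTL1.3 replicate 1 it was -0.39 and passed (limma adjusted p = 0.00162), and after GC correction it was -0.42 and passed (limma adjusted p = 0.000420). In both of these fits, and with the replicate block (limma adjusted p = 0.172), limma pooled the variance fully across genes. Over 16 alternatives the adjusted p ran from 0.000420 to 0.972. AGAP2 transcripts had a mean GC content of 60.7%, above that of 87.1% of tested genes with a value. As TPM the log2 fold change of AGAP2 was 0.07 without passing. The antisense transcript AGAP2-AS1 was below 1 on average in both groups and was not tested.

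AVIL, 45.9 kb from METTL1, was barely expressed. Its values were 1.61, 1.45 and 1.93 in sgMETTL1.3 libraries, against 1.23, 1.02 and 1.40 in sgNS libraries. All sgMETTL1.3 values lay above all sgNS values, and the difference of 0.26 (log2) did not pass (SE 0.142, limma adjusted p = 0.133). As TPM it was 0.46 and passed (limma adjusted p = 0.0121). AVIL is known chiefly from sensory neurons, and its exonic overlap with TSFM makes 5.1% of its annotated exonic bases.

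OS9 and CTDSP2, the farthest of the neighbours on either side at 78.8 and 73.9 kb, did not pass on the deposited scale and rose as TPM. OS9 had values of 214, 168 and 199 in sgMETTL1.3 libraries, against 177, 193 and 188 in sgNS libraries, with overlap and a difference of 0.05 (log2; SE 0.108, limma adjusted p = 0.716). As TPM, OS9 had 209, 202 and 209 in sgMETTL1.3 libraries, against 156, 158 and 156 in sgNS libraries, without overlap and with little spread in either group (log2 fold change 0.40, limma adjusted p = 0.000640). CTDSP2 had values of 97.0, 78.5 and 89.6 in sgMETTL1.3 libraries, against 91.3, 97.0 and 97.6 in sgNS libraries, and the groups overlapped (log2 fold change -0.11, limma adjusted p = 0.386). As TPM, CTDSP2 averaged 94.5 ± 0.145 in sgMETTL1.3 libraries and 80.2 ± 1.01 in sgNS libraries (SD, n = 3), a rise of 0.23 on the log2 scale (limma adjusted p = 0.00749). MIR26A2, the microRNA gene in an intron of CTDSP2, was listed at 0 in all 6 libraries. The same held for the other microRNA genes with a row within 1 Mb of METTL1, in these poly(A)-enriched libraries.

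The fold changes followed the distance from METTL1 among the 9 neighbours. The 4 nearest starts were those of METTL21B, CYP27B1, TSFM and CDK4, which are the 4 genes that fell on the deposited scale. On that scale 49.3% of all tested genes were lower. CDK4 and CYP27B1 lay near the median of all genes and did not pass as TPM (limma adjusted p = 0.0781 and 0.134). The lowest fold change was at the nearest start of the 9. The Spearman coefficient between distance and log2 fold change was 0.867 over the 9 genes on the deposited scale and 0.933 as TPM. It was 0.711 when the gap between gene bodies was used, 0.833 with RefSeq starts, and 0.821 over 7 genes when CYP27B1 and METTL21B, which overlap METTL1, were left out. These are descriptions of 9 genes that were chosen with earlier results known, share the libraries and partly share sequence. No p is attached to them. The order did not continue farther out. Over 22 other tested genes within 1 Mb of METTL1 the Spearman coefficient was -0.06, and over all 31 genes together it was 0.10.

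**Figure D3:**
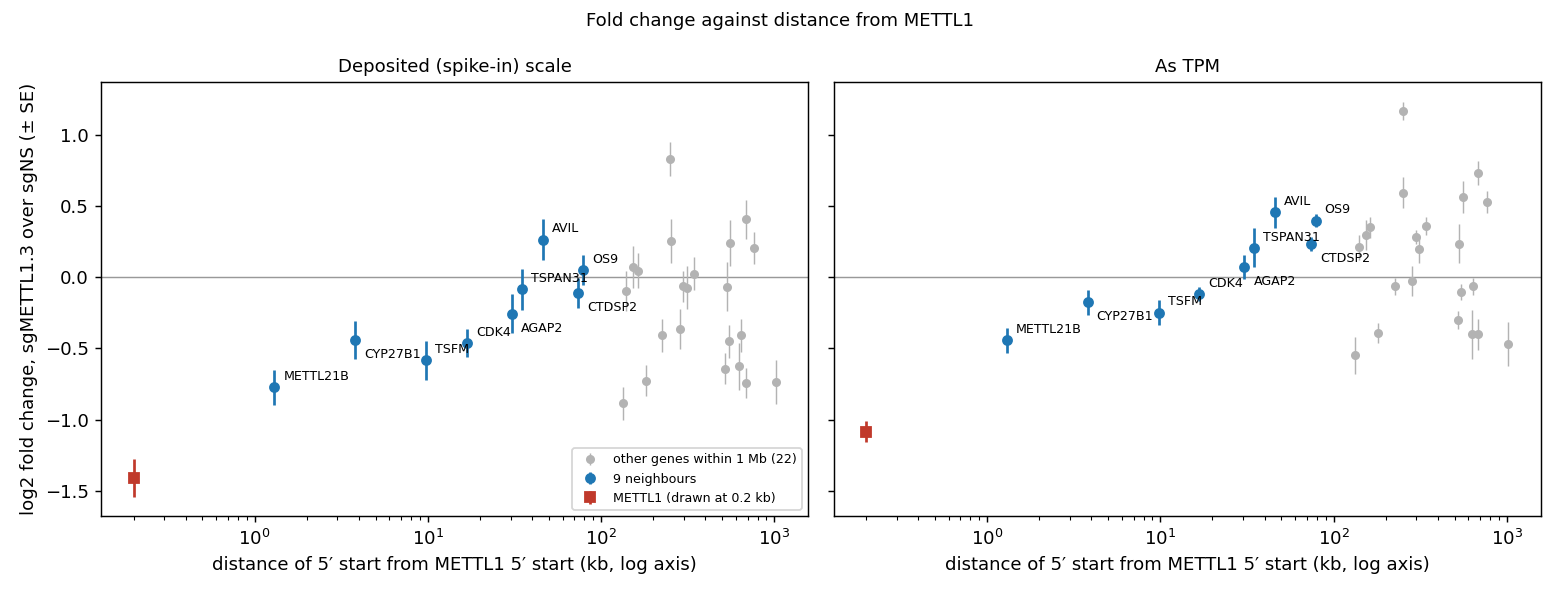
Log2 fold change of sgMETTL1.3 over sgNS (± SE, vertical axis) against the distance between 5′ starts in kb (horizontal log axis), on the deposited scale (left) and as TPM (right), for METTL1 (red), the 9 neighbours (blue) and 22 other genes within 1 Mb (grey). The blue points go from -0.77 at METTL21B to 0.26 at AVIL and 0.05 at OS9, and the grey points spread from -0.89 to 0.83 with no order by distance.

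The wider neighbourhood held genes that fell and rose at least as much as the neighbours. Of 38 rows within 1 Mb, 22 were tested, and 10 fell, 2 rose and 10 did not pass, against 49.3% lower and 6.4% higher among all genes. Their median was -0.08. As TPM 5 fell and 9 rose, against 26.6% lower and 24.4% higher among all genes. ATP23, a mitochondrial protease whose start lies 133.2 kb from METTL1, had 20.7 ± 2.25 in sgMETTL1.3 libraries and 39.1 ± 2.98 in sgNS libraries (SD, n = 3; log2 fold change -0.89). That is a lower fold change than that of any of the 9 neighbours. DDIT3, the stress-induced transcription factor also named CHOP, rose with a log2 fold change of 0.83, and NEMP1, a protein of the inner nuclear membrane, fell (-0.74). As TPM their log2 fold changes were -0.55 for ATP23, 1.17 for DDIT3 and -0.40 for NEMP1, and each passed the test. MARCH9, between CDK4 and CYP27B1, was not analysed here.

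By level, which TPM gives per transcript length, the neighbours spanned from CDK4 and OS9 down to AVIL. In sgMETTL1.3 libraries the order was OS9, CDK4, CTDSP2, TSFM, AGAP2, METTL21B, TSPAN31, CYP27B1 and AVIL. In sgNS libraries CDK4 stood above OS9 and METTL21B above AGAP2, with the rest in the same order, and no adjacent genes overlapped in range. In sgMETTL1.3 libraries the ranges of OS9 and CDK4 overlapped, as did those of AGAP2 and METTL21B. Within each library the order of OS9 and CDK4 was clear. The ratio of OS9 to CDK4 was 1.26, 1.16 and 1.22 in sgMETTL1.3 libraries, against 0.849, 0.862 and 0.834 in sgNS libraries. The ratio of AVIL to TSFM was 0.0820 ± 0.0169 in sgMETTL1.3 libraries and 0.0393 ± 0.00777 in sgNS libraries, and that of AGAP2 to OS9 was 0.0725 ± 0.00632 in sgMETTL1.3 libraries and 0.0906 ± 0.00307 in sgNS libraries (SD, n = 3). CDK4 exceeded TSPAN31, with which it shares exonic bases, 32.5 ± 3.40 times in sgMETTL1.3 libraries and 42.2 ± 7.05 times in sgNS libraries (SD, n = 3), with overlapping values. All 7 ratios of neighbouring genes given here and above were chosen after the values were seen, and those with METTL1 carry its fall, so they are given as a description with no test.

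**Figure D4:**
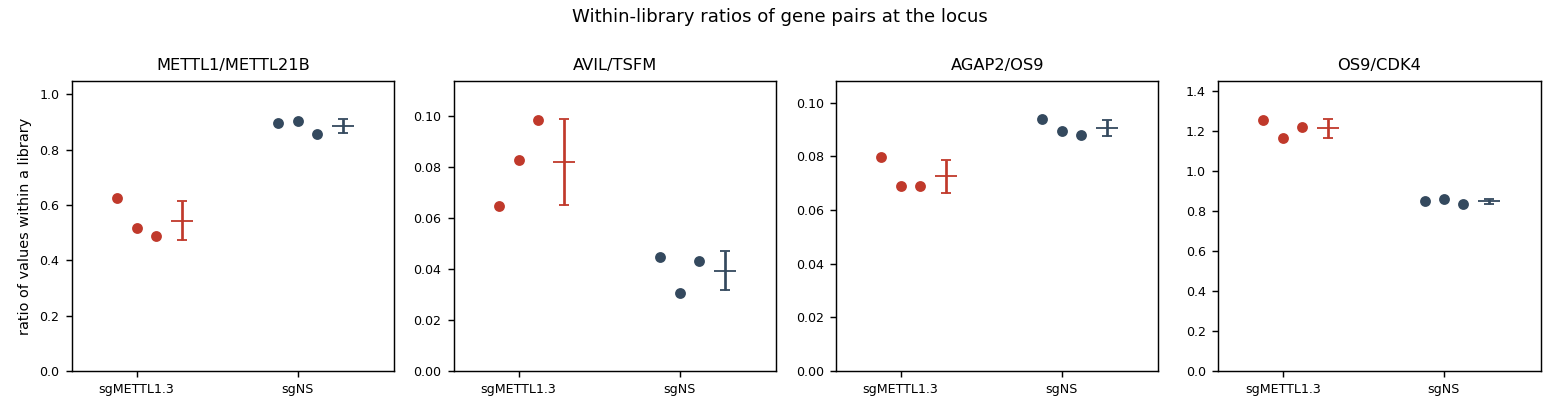
Ratios of the values of 2 genes within each library (linear axes from 0, no unit), which the spike-in factor does not change; points are replicates 1 to 3 and bars the mean ± SD of 3 libraries. OS9/CDK4 lies above 1 in all sgMETTL1.3 libraries and below 1 in all sgNS libraries, and METTL1/METTL21B is lower in all sgMETTL1.3 libraries.

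Partners and relatives of the neighbours were listed by function. Their counts stand beside 49.3% of all genes lower and 6.4% higher on the deposited scale, 26.6% lower and 24.4% higher as TPM, and a median of -0.32 over all genes on the deposited scale. Of 13 partners of CDK4, 8 fell, 1 rose and 4 did not pass (median log2 fold change -0.38; 3 lower and 2 higher as TPM), near the shares over all genes. CCND2, a cyclin D, fell (-1.02), as did the chaperone gene HSP90AB1 (-0.83), and the kinase inhibitor gene CDKN1A rose (1.00). Of 12 mitochondrial translation factors, 11 fell and 1 did not pass (median -0.67; 8 lower and 0 higher as TPM). Among them MTIF2, the initiation factor, fell (-1.23), MRRF, the ribosome recycling factor, (-0.91), and GFM1, an elongation factor, (-0.75). TSFM itself, at -0.58, lay above that median.

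Of 10 tested genes of elongation factor 1A and related protein methyltransferases, 6 fell and 4 did not pass (median -0.43; 4 lower and 0 higher as TPM). EEF2KMT, which methylates elongation factor 2, fell (-1.38), as did EEF1AKMT1 (-1.13) and METTL13 (-0.79), which methylate elongation factor 1A. Of 15 degradation partners of OS9, 10 fell and 5 did not pass (median -0.41; 3 lower and 2 higher as TPM). Among all genes 49.3% were lower and 6.4% higher on the deposited scale, and 26.6% lower and 24.4% higher as TPM. The mannosidase-like genes EDEM3 (-1.14) and EDEM1 (-0.74) and FAM8A1 (-0.74) fell, while OS9 was at 0.05.

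Of 6 tested genes of the vitamin D pathway, CYP2R1, a vitamin D 25-hydroxylase, fell (-1.15), and CYP27A1, a sterol hydroxylase, rose with a log2 fold change of 0.65. That of CYP27A1 did not pass without sgMETTL1.3 replicate 3 (limma adjusted p = 0.0782). Of 5 tested relatives of AVIL, 3 fell and 2 did not pass, with VILL falling (-1.004). Of 12 tested tetraspanins, 2 fell and 2 rose, with a median of -0.12, and CD37, a leukocyte tetraspanin, rose with a log2 fold change of 0.83. Of 8 tested Arf GTPase-activating proteins, 3 fell, with ASAP1 lowest in p (-0.83). Of 8 phosphatases related to CTDSP2, 2 fell, with CTDSPL at -0.81. Among all genes 49.3% were lower and 6.4% higher on the deposited scale, and 26.6% lower and 24.4% higher as TPM. As TPM the calls were 1 lower and 3 higher for vitamin D genes, 1 and 1 for AVIL relatives, 0 and 6 for tetraspanins, 1 and 0 for Arf GTPase-activating proteins, and 1 and 1 for the phosphatases. The partners and relatives given with values here kept their direction and call as TPM. Falls were smaller (-1.06 for EEF2KMT to -0.39 for EDEM1) and rises larger (0.89 for CYP27A1 to 1.34 for CDKN1A). Other genes of smallest p in their lists lost their call. FLII, SVIL, CD9, TSPAN3, ACAP1, ACAP2 and CTDSPL2 fell on the deposited scale and did not pass as TPM.

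Genes elsewhere in the genome had profiles over the 6 libraries close to those of the fallen neighbours. The measure was the root-mean-square distance between log2(value + 1) profiles, each centred on its own mean over the libraries. SERPINE2 and SIRPB1 were nearest to METTL21B, at distances of 0.0168 and 0.0225. SRGAP2 and VPS72 were nearest to CDK4, at 0.0142 and 0.0157. COPS6 and TNPO2 were nearest to TSFM, at 0.0361 and 0.0369, and MED18 and ATXN7L1 to CYP27B1, at 0.0302 and 0.0395. A close profile brings a like fold change by construction, and among 12449 genes near matches are easily found. As TPM, SRGAP2, VPS72, MED18 and ATXN7L1 did not pass the test, as CDK4 and CYP27B1 did not.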

How the data were processed

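RNA was measured in 6 libraries, 3 per group. Per the labels' protocols, libraries were made from 300 ng of total RNA with a KAPA mRNA kit and ERCC spike-ins; the labels name QIAzol and TRIZOL. The submitters' processing notes name cutadapt, STAR, RSEM and GRCh38 (hg38), without versions, and the annotation and use of strand are not stated. As deposited by the authors, each signal value is TPM in steps of 0.01 times 1 factor per library, read from the values: spike-in rows sum to 38252 in each. No reads can be recovered, so no counting interval is given.

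Genes reaching a value of 1 in 3 or more libraries (12449) entered a limma 3.58.1 fit of log2(value + 1) (in R 4.3.3; trend, robust, Benjamini-Hochberg at 0.05 over all genes); spike-ins were left out. Fold changes on this scale understate those of low genes. The fit was run on simulated data with independent noise for each gene. Such data lack deviations shared across the genes of a library, so the run does not test the fit against them. Coordinates and GC content (96.6% of tested genes) came from GENCODE 29; METTL21B was matched through its newer symbol. Of 101 partner and relative genes, 96 had a row. Rows with date-like names (28) were not matched to genes.

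Members and lists were chosen with earlier results of these data known. Named genes were METTL1, the neighbours, up to 3 of smallest p per list and, for each fallen neighbour, the 2 most alike; genes without a symbol were left out. Alternatives were scale, pseudocount, filter, limma settings, a replicate block, GC correction and each library left out; other measures of distance were added after seeing the data.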

Additional observations from a re-analysis of the deposited data

How the results depend on the processing

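METTL1 and METTL21B kept direction and call under all 16 alternatives. Undoing the spike-in factor, rescaling by median ratios and TPM without sgMETTL1.3 replicate 1 changed the counts of calls. In that order of settings, neighbours called lower numbered 2, 1 and 3, and neighbours called higher 3, 3 and 3. All genes called lower numbered 3295, 3340 and 4313, and called higher 3021, 3179 and 4231. The neighbours' median log2 fold change was 0.071, 0.085 and -0.0022, and -0.42 after GC correction. CTDSP2 turned to 0.23, 0.25 and 0.23, SVIL to 0.0017, 0.016 and 0.054, and with the last setting TSPAN3 turned to 0.018 and RPAP2 to 0.20. A mean of at least 5, with fewer genes tested, gave 510 genes higher. The Spearman coefficient with distance was 0.933 with the first 2 scalings, 0.964 with a mean of at least 5 (7 neighbours), 0.917 after GC correction, and, as alternatives added after seeing the data, 0.711 by gaps and 0.821 without the overlapping genes. Leaving out 1 library gave a Spearman coefficient of 0.867 to 0.933, 3 to 5 neighbours lower and 0 higher, 4880 to 7538 genes lower and 534 to 1037 higher, a neighbours' median of -0.39 to -0.13, and METTL1 at -1.50 to -1.29. Replicate numbers are shared by the groups, but same-numbered libraries did not deviate together (r = -0.0137, 0.0046 and -0.0385 for numbers 1, 2 and 3); with the replicate block 4 neighbours were lower and 0 higher, and 5861 and 814 of all genes. In that fit, after GC correction and without sgMETTL1.3 replicate 1, limma pooled the variance fully across genes. The unknown depth limits what can be said of AVIL and CYP27B1.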
